A study of Mus musculus with 6 samples.

Results

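The genes described here encode Rab GTPases, the small GTP-binding proteins that give each membrane compartment of a cell its identity and direct vesicle traffic between compartments. They were chosen by name, as every gene whose platform symbol is Rab followed by a number and at most 1 letter, with 1 gene of the family left out. This gave 49 genes, measured by 94 of the array's 22626 probe sets, among 12393 genes in all. Where a gene had several probe sets, the one brightest on average across the 6 samples was used.

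Expression was measured with 1 Affymetrix Mouse430a array per sample in CD4+CD25+ T cells of the mouse, the surface markers used to sort regulatory T cells. There were 3 samples from C57BL6 mice of genotype HDAC3-fl/fl_FOXP3cre, called Hdac3 deleted here, and 3 from wild type C57BL6 mice. The first genotype combines floxed alleles of Hdac3, a histone deacetylase, with a Cre recombinase named for Foxp3, a transcription factor that defines regulatory T cells. The labels give no age, sex, treatment or pooling of animals, and nothing in them says that samples came from separate mice. P-values therefore reflect only the variation among these 6 arrays, part or all of which could be technical. Values are log2 expression after robust multiarray average (RMA) normalization. A difference is the Hdac3 deleted mean minus the wild type mean, tested with limma and adjusted over all 12393 genes. A gene passed the test at an adjusted p under 0.05, and a 2-fold difference was asked for in addition where stated.

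The sample groups stood far apart. Pearson correlation over all probe sets was 0.997 to 0.998 among Hdac3 deleted samples, 0.996 to 0.997 among wild type samples and 0.921 to 0.923 between the groups. Hdac3 measured 8.46, 8.51 and 8.50 in the Hdac3 deleted samples and 9.07, 9.04 and 9.01 in the wild type samples, lower by -0.55 on the log2 scale (limma adjusted p = 7.45e-05). Where the Hdac3 probe sets lie relative to the floxed exons is not known. The source name of these samples speaks of HDAC11, against their titles and genotype. Foxp3 lay in the background range in every sample, which bacterial control probe sets put at 2.37 to 5.16. Of 8 regulatory T cell markers, Foxp3 included, 5 fell and 1 rose, with a median of -0.81. Izumo1r, Gpr83 and Ikzf2 differed by -2.03, -1.90 and -1.58, Il2ra, which encodes CD25, rose by 0.71, and Ctla4 did not pass (0.07). All 10 T cell markers fell, by a median of -1.41. All 14 macrophage markers rose, by a median of 7.17, and all 12 neutrophil markers rose, by a median of 6.35. The neutrophil markers ran from 0.57 (Cxcr2, near background in both groups) to 9.25 (S100a8). The log2 of the summed macrophage marker signal was 16.60 to 16.64 in Hdac3 deleted samples and 9.18 to 9.28 in wild type samples. Adgre1, Cd14, Fcgr1, Itgam and Mrc1, defining genes of macrophages and monocytes, were in the background range in all wild type samples. The log2 sum of the T cell markers was 13.94 to 13.96 in Hdac3 deleted samples and 15.23 to 15.29 in wild type samples. These marker changes accompany every Rab difference below, and their part in them was not tested. With bulk RNA, fewer cells of a type and less RNA per cell cannot be told apart.

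A Rab protein alternates between a GTP-bound form, which holds effectors at a membrane, and a GDP-bound form, which is extracted from the membrane. Exchange factors load GTP and GTPase activating proteins end the active state. A prenyl tail, added by an escort protein and a transferase, anchors the protein. In T cells, Rabs carry receptors through recycling endosomes to the contact with other cells and move granules to the surface. In phagocytes, successive Rabs mark the maturing phagosome.

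Most Rab genes differed little between the groups, while a few changed several-fold. Of the 49 genes, 8 rose and 2 fell past both thresholds, among a background of 9.04% of all genes higher and 4.46% lower by the same rule. Together the 10 genes are 20.4% of the Rab genes, where 13.5% of all genes were called. Without the fold threshold 33 Rab genes passed, or 67.3%, against 61.2% of all genes. Of these 20 rose and 13 fell, where 22.4% of all genes were higher and 38.8% lower, and 16 Rab genes did not pass. The 3 Hdac3 deleted values did not overlap the 3 wild type values in 36 Rab genes, or 73.5%, which is near the 67.4% of all genes. Such genes were higher in 21 cases and lower in 15, where the background was 24.3% higher and 43.1% lower. The median difference was 0.02 over the Rab genes and -0.17 over all genes. No set test was made of these shares. Both group medians move with the scaling of the arrays, so that small differences have no settled direction. Centring each array on its median put the all-gene median at -0.33, and cyclic loess put it at 0.00.

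**Figure D1:**
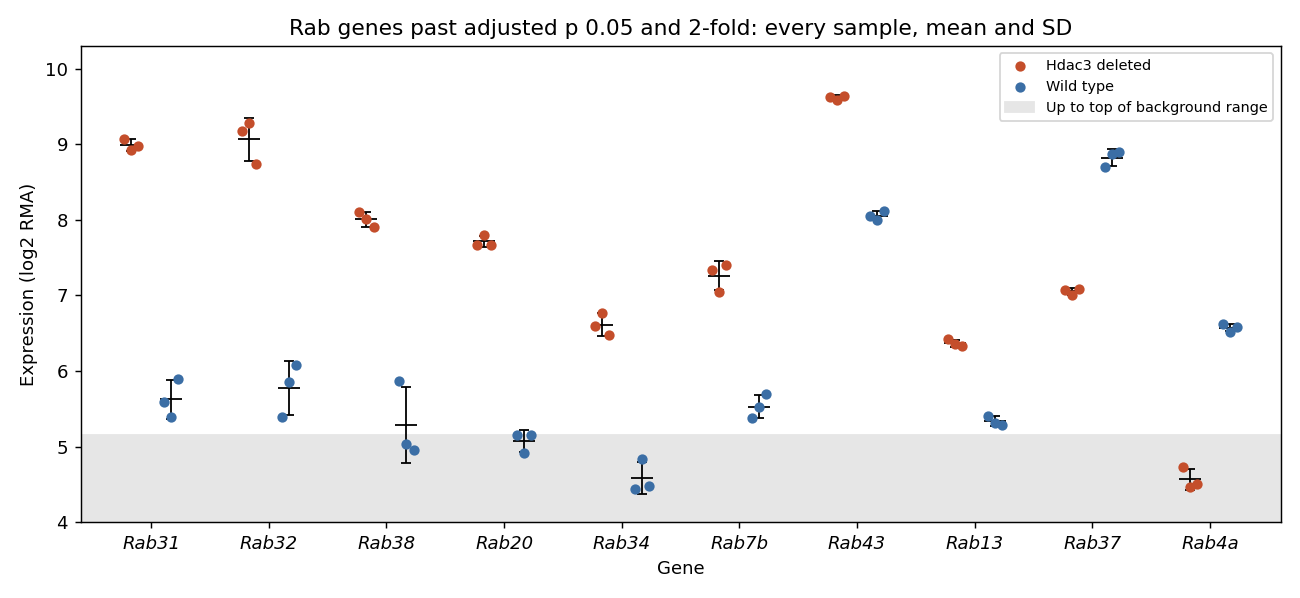
Expression (log2 RMA) of the 10 Rab genes past adjusted p 0.05 and a 2-fold difference, with every sample as a point and the mean and SD (n = 3) as a bar. The grey band ends at 5.16, the top of the background range. Hdac3 deleted samples lie above all wild type samples for the 8 genes from Rab31 to Rab13, and below them for Rab37 and Rab4a.

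The largest rise was in an early endosome gene. Rab31, which acts in transport between the trans-Golgi network and endosomes, measured 9.07, 8.92 and 8.97 in the Hdac3 deleted samples and 5.59, 5.39 and 5.90 in the wild type samples. It was 10.2-fold higher, a difference of 3.36 (SE 0.128, limma adjusted p = 9.79e-07). A second Rab31 probe set, in the background range in both groups, differed by 0.15 (adjusted p = 0.435). Rab20, an endosome and phagosome Rab known from macrophages, measured 7.67, 7.80 and 7.67 in Hdac3 deleted samples and 5.15, 4.91 and 5.16 in wild type samples. The groups were far apart, with a difference of 2.64 (SE 0.0859, adjusted p = 4.71e-07), although the wild type mean of 5.08 lay in the background range and only 1 of the 3 wild type arrays just above it.

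The other 6 early endosome and phagosome genes changed by less than 2-fold. Rab5a, Rab5b and Rab5c encode close relatives that drive fusion of early endosomes, and only Rab5c was higher. Rab5a measured 9.44, 9.44 and 9.41 in Hdac3 deleted samples and 9.46, 9.61 and 9.64 in wild type samples. The groups did not overlap, but the difference of -0.14 did not pass the test (adjusted p = 0.103), though it did without wild type replicate 1 (-0.19, adjusted p = 0.0291). Rab5c was 10.58 ± 0.029 in Hdac3 deleted samples and 10.19 ± 0.0262 in wild type samples (SD, n = 3), higher by 0.39 (limma adjusted p = 0.000471). Rab5b was lower by -0.26 (adjusted p = 0.0256), a call that was lost on leaving out any of 4 single samples (adjusted p 0.0559 to 0.0711) and with cyclic loess (-0.07, adjusted p = 0.391). Rab21, which carries integrins through endosomes, was lower by -0.29 (adjusted p = 0.0161, and 0.292 with cyclic loess), and by -1.04 on its second probe set (adjusted p = 5.21e-05). Rab17, of epithelial recycling, and Rab22a did not pass, at -0.29 and -0.09 (adjusted p = 0.0505 and 0.234), and Rab17 passed without Hdac3 deleted replicate 3 or wild type replicate 3 (adjusted p = 0.0136 and 0.0327).

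Among the genes listed here under late endosomes, lysosomes and related organelles, none fell. The role lists were made with earlier results of these data known, and some genes could be placed otherwise. Rab27a, which recruits a motor to melanosomes, was listed under regulated secretion and differed by -0.47 (limma adjusted p = 0.0121), near background. Of the 7 listed genes 6 rose, 3 of them at least 2-fold, where 22.4% of all genes were higher and 9.04% higher by 2-fold. The median difference was 0.42, against -0.17 over all genes. Rab32 and Rab38 are close relatives that bring enzymes to melanosomes and other lysosome-related organelles. Rab32 measured 9.17, 9.28 and 8.74 in Hdac3 deleted samples and 5.39, 5.86 and 6.08 in wild type samples, a difference of 3.29 (SE 0.205, limma adjusted p = 1.12e-05). Rab38 measured 8.10, 8.01 and 7.91 in Hdac3 deleted samples and 5.87, 5.04 and 4.96 in wild type samples. It rose by 2.72 (SE 0.232, adjusted p = 5.3e-05). Only 1 of its 3 wild type values lay above the background range.

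Rab29, the third relative, acts at the Golgi and stressed lysosomes. It was 8.65 ± 0.0189 in Hdac3 deleted samples and 8.22 ± 0.0654 in wild type samples, higher by 0.42 (limma adjusted p = 0.000527). Rab7b, which returns cargo from late endosomes to the Golgi, measured 7.34, 7.04 and 7.40 in Hdac3 deleted samples and 5.38, 5.52 and 5.69 in wild type samples. The groups did not overlap, and the gene was 3.33-fold higher (1.74, SE 0.12, adjusted p = 1.85e-05). Its second probe set, which was in the background range in wild type samples, differed by 1.85 (adjusted p = 0.000403).

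Rab7, the general Rab of late endosomes and lysosomes, moved the same way by less. It measured 10.43, 10.49 and 10.45 in Hdac3 deleted samples and 10.02, 10.10 and 10.11 in wild type samples, higher by 0.38 (SE 0.0542, adjusted p = 0.000749). Rab9, which directs return of mannose 6-phosphate receptors to the Golgi, rose by 0.26 (adjusted p = 0.0101), but not with median centring (0.10, adjusted p = 0.179). Rab24, an autophagy Rab, was 8.52 ± 0.14 in Hdac3 deleted samples and 8.37 ± 0.261 in wild type samples and did not pass (adjusted p = 0.367). The log2 summed macrophage signal moved with these genes, at 16.60 or more in Hdac3 deleted samples and 9.28 or less in wild type samples, and its part in them was not tested.

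**Figure D2:**
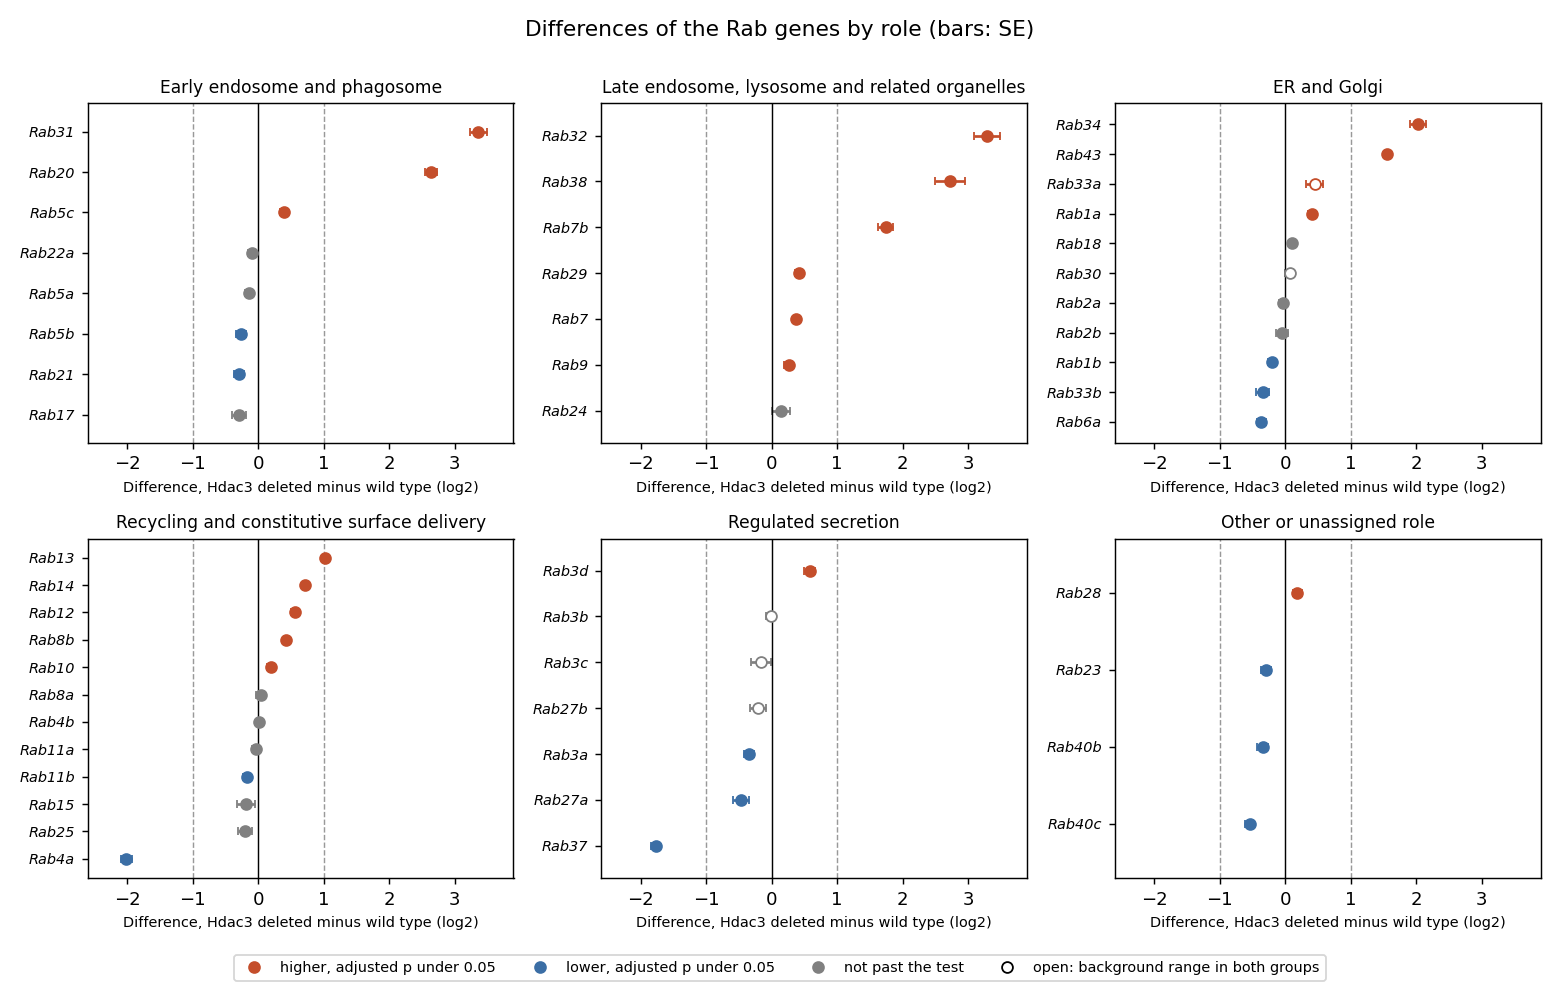
Difference in log2 expression (Hdac3 deleted minus wild type, bars SE) of all 49 Rab genes, in 6 panels by role. Dashed lines mark 2-fold. Red points passed the test higher, blue lower and grey not, and open points were within background in both groups. The genes listed under late endosomes and lysosomes lie right of 0, from 0.15 to 3.29, while the other panels hold genes on both sides. The role lists were made with earlier results of these data known.

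Promoters of 3 of the 4 genes with the largest rises are shown, since the genes rose together and their start regions can be compared. Each RefSeq window (GRCm38.p6) runs from 250 bases before to 50 after a gene start, 5′ to 3′ on the strand of the gene, and capitals mark a match to 1 of the 4 motifs searched. The windows are chr17:65772703-65773002 (minus strand) for Rab31, chr10:10558158-10558457 (minus strand) for Rab32 and chr8:11478591-11478890 (minus strand) for Rab20.
Rab31: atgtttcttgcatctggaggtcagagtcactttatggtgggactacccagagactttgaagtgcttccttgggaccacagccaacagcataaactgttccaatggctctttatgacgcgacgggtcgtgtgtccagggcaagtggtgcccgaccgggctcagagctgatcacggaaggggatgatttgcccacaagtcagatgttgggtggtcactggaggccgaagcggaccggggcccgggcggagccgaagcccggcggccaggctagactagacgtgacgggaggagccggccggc
Rab32: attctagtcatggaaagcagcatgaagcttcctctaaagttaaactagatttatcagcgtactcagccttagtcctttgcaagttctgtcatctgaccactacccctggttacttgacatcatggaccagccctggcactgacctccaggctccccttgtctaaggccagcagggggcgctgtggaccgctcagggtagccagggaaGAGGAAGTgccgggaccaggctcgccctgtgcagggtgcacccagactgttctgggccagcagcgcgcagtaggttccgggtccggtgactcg
Rab20: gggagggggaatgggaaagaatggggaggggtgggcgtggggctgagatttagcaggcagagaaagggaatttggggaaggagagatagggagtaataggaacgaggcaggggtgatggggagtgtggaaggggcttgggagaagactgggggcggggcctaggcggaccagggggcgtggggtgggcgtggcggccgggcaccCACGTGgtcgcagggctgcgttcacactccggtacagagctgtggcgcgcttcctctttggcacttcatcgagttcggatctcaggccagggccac
The motifs were GAGGAAGT, the core bound by the myeloid and B cell factor PU.1, CACGTG, the E-box, TGACTCA, bound by AP-1, and TATAAA, searched on both strands. None of the 4 contains another. The Rab32 window held GAGGAAGT, which 3.2% of all 32851 RefSeq windows hold, and the Rab20 window held CACGTG, which 7.15% hold. Among the 53 Rab windows the shares were 3.77% and 11.3%. The Rab31 window held none of the 4. Over 11 windows of the 6 risen genes with an entry, GAGGAAGT, CACGTG and TGACTCA were each in 1 window and TATAAA in 0. Rab38 and Rab7b, and the fallen genes Rab4a and Rab37, had no entry. The 53 windows of 41 Rab genes had a median of 61.0% G and C and an observed-to-expected CpG ratio of 0.725, against 52.7% and 0.384 over all windows. A match describes the letters and shows no binding.

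ER and Golgi genes were split. Of 11 genes 4 passed the test higher, 1 of them (Rab33a) within background in both groups, and 3 fell, while 2 rose at least 2-fold. That is 63.6% past the test and 18.2% past 2-fold, against 61.2% and 13.5% of all genes. Rab34, a Golgi Rab that positions lysosomes and acts in cilium formation, measured 6.59, 6.77 and 6.47 in Hdac3 deleted samples and 4.44, 4.83 and 4.48 in wild type samples. All wild type values were in the background range, so the gene was at least 2.74-fold higher (limma adjusted p = 1.14e-05). Its second probe set differed by 2.04. Rab43, which acts in Golgi traffic and in cross-presentation by dendritic cells, measured 9.63, 9.58 and 9.64 in Hdac3 deleted samples and 8.05, 8.0 and 8.12 in wild type samples. It was 2.95-fold higher (1.56, SE 0.0566, adjusted p = 8.01e-07), well apart from the sample spread. A second, dimmer Rab43 probe set did not pass, at 0.08 (adjusted p = 0.595).

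The general Golgi Rabs moved less. Rab1a, which is needed for transport from the ER to the Golgi, was 11.24 ± 0.0389 in Hdac3 deleted samples and 10.83 ± 0.0581 in wild type samples, higher by 0.41 (adjusted p = 0.000627). Rab1b, its close relative, was lower by -0.20 (adjusted p = 0.0389), a call lost on leaving out any of 5 single samples (adjusted p 0.0781 to 0.105) and with cyclic loess (-0.01). Rab6a, of traffic within the Golgi and back to the ER, was lower by -0.36 (adjusted p = 0.00502), but not past the test with cyclic loess (-0.16, adjusted p = 0.0828). Rab33b, a Golgi and autophagy Rab, was lower by -0.34 (adjusted p = 0.0207), which was lost on leaving out any of 4 single samples (adjusted p 0.0517 to 0.0649) and with cyclic loess (-0.16, adjusted p = 0.169). Rab2a, Rab2b and Rab18 did not pass, with differences of -0.03, -0.05 and 0.11. Rab2a was higher with cyclic loess (0.17, adjusted p = 0.0304) and lower with median centring (-0.19, adjusted p = 0.0138). For Rab30 and Rab33a every sample was within background, so no direction is read from them, although Rab33a passed the test.

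Among recycling and surface delivery genes, the largest change was the fall of Rab4a, which returns receptors quickly from early endosomes to the surface and takes part in surface receptor turnover in T cells. Rab4a measured 4.73, 4.47 and 4.51 in Hdac3 deleted samples and 6.62, 6.52 and 6.58 in wild type samples. The Hdac3 deleted values were all in the background range, so it was at least 2.68-fold lower (limma adjusted p = 1.26e-06). Its measured difference was -2.01 (SE 0.0803), and a second probe set differed by -1.77. For comparison Cd3d, Cd3e, Cd3g and Cd247, subunits of the T cell receptor complex, differed by -1.21, -1.51, -1.56 and -1.59. The whole list of 10 T cell markers ran from -2.48 to -0.78. The close relative Rab4b did not follow, at 9.38 ± 0.0451 in Hdac3 deleted samples and 9.36 ± 0.0444 in wild type samples (0.02, adjusted p = 0.789). With cyclic loess Rab4b was higher (0.21, adjusted p = 0.0117).

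Of the 12 recycling and surface delivery genes 5 rose and 2 fell, or 58.3%, against 61.2% of all genes. Rab13, which acts at cell junctions and in delivery of integrins to the surface of lymphocytes, measured 6.42, 6.36 and 6.33 in Hdac3 deleted samples and 5.41, 5.31 and 5.29 in wild type samples. It rose by 1.03 (SE 0.0588, limma adjusted p = 7.08e-06), just past 2-fold, and was short of 2-fold with median centring (0.87) and with quantile normalization again (0.92). Rab14, of endosome to Golgi traffic and phagosomes, was the next largest, at 11.31 ± 0.033 in Hdac3 deleted samples and 10.59 ± 0.0132 in wild type samples (0.72, adjusted p = 1.9e-05). Rab12 rose by 0.56 (adjusted p = 0.000129) and Rab8b, of delivery to the plasma membrane, by 0.43 (adjusted p = 0.000505). Averaged with its second probe set, which was within background, Rab8b differed by -0.01 (adjusted p = 0.922). Rab10, which acts in polarised and insulin-driven delivery, rose by 0.20 (adjusted p = 0.0198), a call lost with median centring (0.04, adjusted p = 0.548) and on leaving out any of 3 single samples (adjusted p 0.0523 to 0.0747).

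Rab11a, the central Rab of the slow recycling endosome, measured 9.92, 9.96 and 9.92 in Hdac3 deleted samples and 9.90, 9.95 and 10.05 in wild type samples. The groups overlapped, with a difference of -0.03 (limma adjusted p = 0.643). It was called higher with cyclic loess (0.17, adjusted p = 0.031) and lower with median centring (-0.19, adjusted p = 0.0196), and a dimmer probe set was lower by -0.58 (adjusted p = 0.0026). Rab11b was lower by -0.17 (adjusted p = 0.0414), but 0.02 with cyclic loess (adjusted p = 0.77) and not past the test without any of 5 single samples (adjusted p 0.077 to 0.123). Rab8a, Rab15 and Rab25 did not pass, at 0.04, -0.18 and -0.20, and Rab25 passed without Hdac3 deleted replicate 1 (adjusted p = 0.0488).

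Regulated secretion genes included the other large fall. Rab37, a secretory granule Rab, measured 7.07, 7.0 and 7.09 in Hdac3 deleted samples and 8.70, 8.87 and 8.90 in wild type samples. It was lower by -1.77 (SE 0.0703, limma adjusted p = 1.23e-06), or 3.4-fold, above background in both groups. Cd247, the CD3 gene with the lowest difference, was at -1.59, and the 10 T cell markers ran from -2.48 (Trat1) to -0.78 (Cd6). Rab27a, which docks cytotoxic granules, measured 4.50, 4.51 and 4.51 in Hdac3 deleted samples and 5.27, 4.84 and 4.84 in wild type samples. Only 1 wild type value was above background and the wild type mean of 4.98 was not, so no fold is given, although the difference of -0.47 passed the test (adjusted p = 0.0121, and 0.0523 with cyclic loess).

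The Rab3 genes, known from exocytosis in neurons and glands, did not move as 1 group. Rab3d was 6.80 ± 0.104 in Hdac3 deleted samples and 6.22 ± 0.13 in wild type samples, higher by 0.58 (limma adjusted p = 0.00104). Rab3a was 6.33 ± 0.139 in Hdac3 deleted samples and 6.68 ± 0.0272 in wild type samples, lower by -0.34 (adjusted p = 0.0079, and 0.107 with cyclic loess). Rab3b, Rab3c and Rab27b lay in the background range in both groups. Of 7 secretion genes 1 rose and 3 fell, or 57.1%, against 61.2% of all genes. Over all genes 22.4% were higher and 38.8% lower. The other 4 Rab genes had no assigned step here. Rab40c, which joins a ubiquitin ligase, was lower by -0.54 (adjusted p = 0.000391), and Rab23, a negative regulator of Hedgehog signalling, by -0.29 (adjusted p = 0.00992, and 0.24 with cyclic loess). Rab40b was at least 1.01-fold lower, its Hdac3 deleted values being in the background range (adjusted p = 0.0114, and 0.136 with cyclic loess). Rab28 was higher by 0.19 (adjusted p = 0.0425), a call lost on leaving out any single sample (adjusted p 0.053 to 0.12) and with median centring (0.03).

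Rab genes that share a number were also compared with each other. Relatives with different numbers, such as Rab32 and Rab38, were not paired. Within each array, the log2 value of 1 gene was subtracted from that of a gene sharing its number, for 18 pairs, and the groups were compared. They did not overlap in 13 of the 18 pairs, and in 8 of the 11 pairs in which both genes were above background in a group. Single genes did not overlap in 67.4% of cases, and unrelated pairs were not compared. The values that follow compare the group differences of 2 genes, not their levels. The difference of Rab4b exceeded that of Rab4a by a measured 2.03, a value set against Rab4a within background in the Hdac3 deleted samples. That of Rab7b exceeded that of Rab7 by 1.35 (SE 0.146), although Rab7b was the dimmer gene in both groups. Rab3d rose relative to Rab3a by 0.92 (SE 0.15), Rab5c relative to Rab5b by 0.64 (SE 0.0647) and Rab1a relative to Rab1b by 0.61 (SE 0.0541). The differences of Rab2a and Rab2b were 0.02 apart (SE 0.133, overlapping groups). With 3 samples against 3 the exact two-sided permutation test cannot go below p = 0.1, which those 13 pairs reached (0.138 adjusted over the 18 pairs).

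Some Rab genes lie near each other. In the RefSeq order of GRCm38.p6, 3 protein-coding genes separate Rab7b from Rab29 on chromosome 1, 6 separate Rab43 from Rab7 on chromosome 6 and 8 separate Rab31 from Rab12 on chromosome 17. Both Rab genes of each pair rose. Of the genes between, Slc41a1, a magnesium transporter, was lower by -0.43 (limma adjusted p = 0.000972). Isy1, a splicing factor, and Hmces, a DNA repair protein, were lower by -0.77 and -0.76 (adjusted p = 0.000158 and 0.000124), and Twsg1, which modulates bone morphogenetic proteins, by -1.18 (adjusted p = 8.42e-06). Cnbp, Ankrd12 and Ndufv2 were lower by -0.50, -0.52 and -0.39 (adjusted p = 0.000433, 0.000919 and 0.000509). Ppp4r1 was higher by 0.22 (adjusted p = 0.0225). Pm20d1, Washc1, Copg1 and H1f10 did not pass, at -0.23, 0.04, 0.01 and -0.24, and no other gene between had a value. Over all genes 38.8% were lower and 22.4% higher. These genes were named for their position after their values were seen.

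More than 1 probe set was present for 27 of the 49 genes, which allows a check within genes. Of the 45 further probe sets, 15 were in the background range in both groups. Of the 30 above it, 2 had a sign opposite to that of the probe set used, for Rab18 and Rab2a, and in neither case did both probe sets pass. All 18 further probe sets that were above background and passed the test had the sign of the one used. The 5 called genes with a further probe set were Rab31, Rab34, Rab7b, Rab43 and Rab4a, and the further set was called the same way in Rab34, Rab7b and Rab4a.

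**Figure D3:**
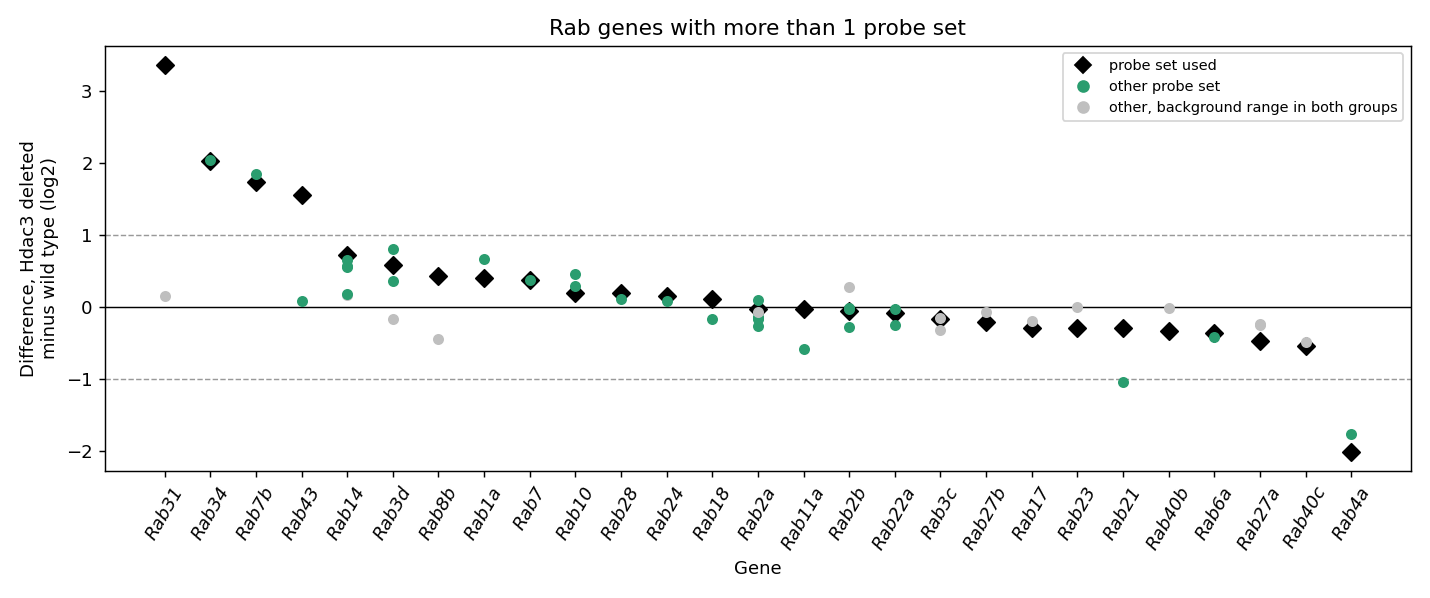
Difference in log2 expression (Hdac3 deleted minus wild type) of every probe set of the 27 Rab genes that have more than 1, with black diamonds for the set used, green points for further sets, grey points for further sets within background, and dashed lines at 2-fold. Green and grey points lie near the diamond for most genes, and at least 1 lies apart from it for Rab31, Rab43, Rab14, Rab3d, Rab8b, Rab11a and Rab21.

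The machinery that loads, switches and reads Rabs was covered by 77 measured genes in 4 lists. Past both thresholds 10 rose and 4 fell, or 18.2% against 13.5% of all genes, and the median difference was 0.04. Without the fold threshold 32 rose and 22 fell, the latter including Chml, Ehbp1 and Sytl4, which were within background in both groups. Of all 77 genes 70.1% passed, against 61.2% of all genes on the array. Of 25 exchange factors 9 rose and 8 fell, or 68%. Rab3il1 and Rab3ip, related exchange factors for Rab8, changed in opposite directions. Rab3il1 measured 8.90, 8.72 and 8.81 in Hdac3 deleted samples and 5.13, 5.50 and 5.59 in wild type samples (3.40, limma adjusted p = 8.7e-07). Rab3ip measured 6.92, 7.20 and 7.04 in Hdac3 deleted samples and 9.18, 9.19 and 9.11 in wild type samples (-2.11, adjusted p = 9.36e-07). The groups were fully separated in both. Rin2, an exchange factor for Rab5, and Dennd1a, one for Rab35, rose by 1.12 and 1.09. Hps1 and Hps4, named after their values were seen, form the exchange factor for Rab32 and Rab38 and rose by 0.45 and 0.49 (adjusted p = 0.00136 and 0.000207).

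Of 16 GTPase activating proteins 8 rose and 4 fell, or 75% against 61.2% of all genes, with a median of 0.19. Tbc1d8 was 7.59 ± 0.0487 in Hdac3 deleted samples and in the background range in wild type samples, at least 5.4-fold higher (limma adjusted p = 2.36e-07). Evi5, which binds Rab11 and acts in cytokinesis, rose by 2.60 (adjusted p = 3.59e-07), and Tbc1d24 was at least 1.61-fold higher (adjusted p = 3.06e-05). Of 30 effectors 12 rose and 7 fell, or 63.3%, with a median of 0.01. Among the lower ones, Ehbp1 and Sytl4 were within background in both groups, so no direction is read from them. Osbpl1a, which senses cholesterol with Rab7 on late endosomes, was at least 3.05-fold higher (adjusted p = 2.05e-06). Rilpl1, Myo5a, the motor that Rab27a recruits to melanosomes, and Cd2ap, an adaptor of CD2 that also binds Rab4, rose by 1.58, 1.49 and 1.44. Sytl2, an effector of Rab27, measured 6.18, 6.36 and 6.19 in Hdac3 deleted samples and 8.28, 8.42 and 8.55 in wild type samples, lower by -2.17 (adjusted p = 1.32e-06).

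All 6 measured genes of prenylation and recycling passed the test, 3 in each direction, against 61.2% of all genes. Of the lower ones, Chml was within background in both groups, so no direction is read from it. Past 2-fold there was 1 gene, or 16.7%, against 13.5% of all genes. Rabac1, a receptor for prenylated Rabs at the Golgi, was 10.07 ± 0.0182 in Hdac3 deleted samples and 11.16 ± 0.0547 in wild type samples, lower by -1.09 (limma adjusted p = 3.5e-06).

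**Figure D4:**
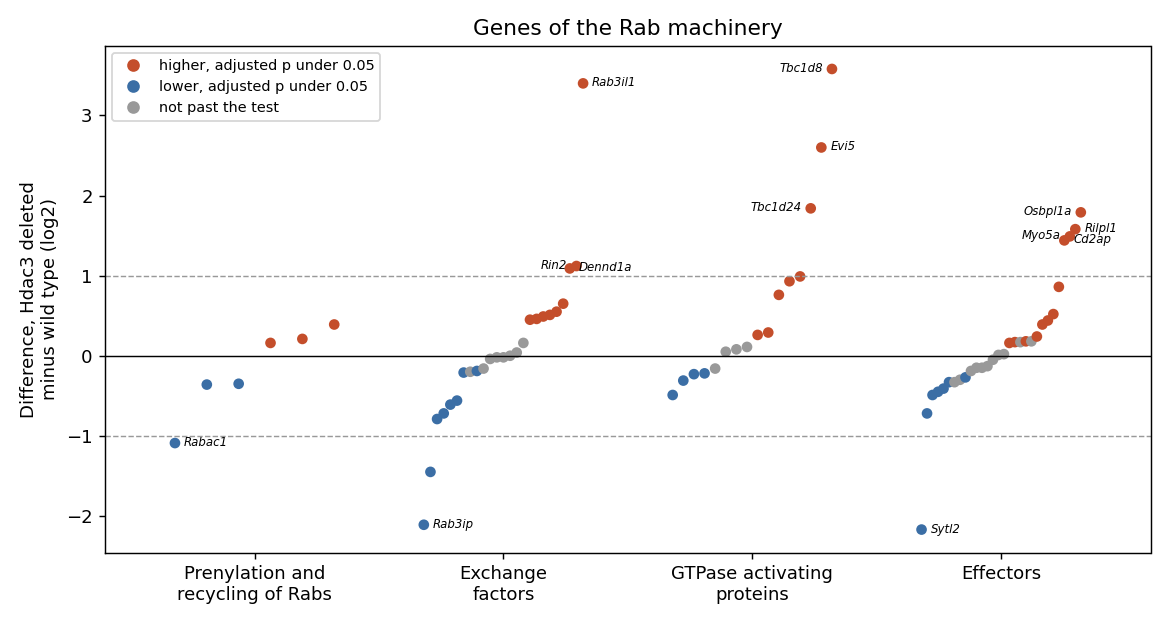
Difference in log2 expression (Hdac3 deleted minus wild type) of the 77 measured genes of the Rab machinery in 4 lists, 1 point per gene, with most genes past both thresholds named. Points are measured differences, and those of Tbc1d8, Tbc1d24 and Osbpl1a are set against wild type values within background. Rab3il1 lies at 3.40 and Evi5 at 2.60, while Sytl2 and Rab3ip lie at -2.17 and -2.11.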

How the data were processed

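The authors deposited log2 expression values per probe set, made from Affymetrix Mouse430a arrays by RMA with MAYDAY 2.12, per the series' design text. The submitters also used Student's test. Depth does not apply to arrays, and their number, 3 per group, limits the precision. No genome build is given in the sources used here.

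Probe sets with 1 gene symbol in the platform annotation were kept (20380, against 691 with several and 1555 with none, after 64 controls), and the brightest was taken per gene. Symbols were checked against RefSeq (20351 matched and none of them differed, 29 were not found). The groups were compared over 12393 genes with limma 3.58.1 in R 4.3.3 (lmFit and eBayes), with Benjamini-Hochberg adjustment, and further probe sets with the same fit over all 22626. This test was tried on simulated data. A group was within background if all its arrays were at or below 5.16, the top of 27 bacterial control probe sets. A gene with 1 group within background was given as at least the fold over that top.

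The members and lists were chosen with earlier results of these data known. Values per sample are given for genes past both thresholds and for Rab5a, Rab7, Rab11a and Rab27a, and up to 4 machinery genes per list and direction are named among those past both thresholds, by smallest p, with 1 that is not reported here. Of the Rab family, 1 symbol is not reported here. Other cell types' markers not described in the report were 6 dendritic cell genes (3 higher, 1 lower), 6 B cell genes (1 higher, 1 lower), 2 CD8 T cell genes (1 lower), 4 natural killer cell genes (2 higher), 5 erythroid and platelet genes (2 higher) and 5 stromal genes (1 lower). Alternatives were other scalings, probe set rules, tests, a replicate block and leaving out each sample.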

Additional observations from a re-analysis of the deposited data

How the results depend on the processing

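The 10 Rab genes past both thresholds kept their direction and passed adjusted p 0.05 under all 15 alternatives run per gene. Rab31 ranged from 1.75 to 3.53 and Rab43 from 0.82 to 1.75, lowest in both cases when probe sets were averaged. Rab genes lower past adjusted p numbered 13, but 20 with median centring and 3 with cyclic loess. All genes 2-fold lower numbered 553, but 867 with median centring and 352 with cyclic loess. The median Rab difference of 0.02 was -0.14 with median centring, 0.20 with cyclic loess and 0.11 when the dimmest genes were left out. The all-gene median moved too, and the Rab median lay 0.19 above it in the main fit. Under those settings the gap was 0.19, 0.20 and 0.26, and it was not tested. Directions turned for Rab11a (0.17), Rab11b (0.02) and Rab2a (0.17) with cyclic loess and for Rab8b (-0.01) with probe sets averaged. These scalings set the array medians differently by construction.

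Leaving out 1 sample gave 17 to 19 Rab genes higher and 9 to 12 lower past adjusted p, 8 and 2 past 2-fold, and medians of -0.01 to 0.04. The methods' t-test gave 19 higher and 9 lower past adjusted p, and at the methods' thresholds, which add 2-fold, 8 and 2. By adjusted p 0.05 and direction, without the fold threshold, 22 of the 49 Rab genes had the same result under every alternative. Rab genes higher past both thresholds numbered 8, but 7 with median centring, with quantile normalization again and with probe sets averaged.

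Whether the replicate numbers pair the samples is not known. Deviations from the group mean correlated at 0.089, 0.065 and -0.201 for same-numbered samples, and at -0.247 to 0.219 for differently numbered ones. Deviations cancel within each group of 3, which constrains these correlations, so they cannot decide it. With the replicate block 19 Rab genes were higher and 10 lower past adjusted p, and 8 and 2 past 2-fold. The calls of Rab10, Rab11b, Rab1b and Rab5b were lost (limma adjusted p 0.0509, 0.0759, 0.0669 and 0.053).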

Other observations

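Families that work beside Rabs, chosen after the data were seen, are given for comparison. Of 23 SNARE genes, which fuse vesicles with target membranes, 8 rose and 8 fell, and 3 rose and 1 fell past 2-fold, with a median difference of -0.06. That is 69.6% past the test and 17.4% past 2-fold, against 61.2% and 13.5% of all genes. Stx3, a syntaxin of the plasma membrane, measured 9.29, 9.07 and 9.17 in Hdac3 deleted samples and 4.78, 5.52 and 4.84 in wild type samples (4.13, limma adjusted p = 2.73e-06), with 1 wild type value above background. Stx7 and Stx12, syntaxins of endosomes, rose by 1.34 and 1.05. Stx1a, known from neuronal exocytosis, measured 6.72, 6.47 and 6.55 in Hdac3 deleted samples and 9.06, 8.97 and 8.90 in wild type samples (-2.39, limma adjusted p = 6.01e-07). Of 10 Arf and Arl GTPase genes, which recruit coats to membranes, 4 rose and 5 fell, or 90%, and Arf2 rose by 1.32 (limma adjusted p = 3.11e-05). The macrophage and T cell marker changes accompany these genes too, and their part was not tested.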
